A study of Mus musculus with 25 samples.

Results

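The genes described here were 10 enzymes that put double bonds into fatty acids or lengthen them: the desaturases Scd1, Scd2, Fads1, Fads2, Fads3 and Fads6 and the elongases Elovl1, Elovl2, Elovl3 and Elovl5. They were taken by symbol and joined to the mouse Ensembl identifiers of the count files, which list 41388 genes. All 10 members were found and all 10 were among the 14065 genes that reached more than 1 CPM (counts scaled to library size) in at least 2 libraries. Each library came from the liver of 1 male C57B/6J mouse, 20 weeks old after 12 weeks of diet, and poly-A RNA was read as single 50-base reads. Animals received an AAV8 virus whose thyroxine binding globulin promoter drives expression in hepatocytes, and it carried either no insert (EV) or NAMPT, the enzyme that limits recycling of nicotinamide into NAD.

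The 5 groups were wild type mice on chow with EV (chow WT EV, n = 3), and on Western diet (WD) wild type with EV (WD WT EV, n = 6), wild type with NAMPT (WD WT NAMPT, n = 6), knockout with EV (WD LKO EV, n = 5) and knockout with NAMPT (WD LKO NAMPT, n = 5). LKO is a liver deletion of Sirt1, an NAD-dependent deacetylase, by Albumin-cre, and the WT mice were Sirt1 fl/fl littermates with no Cre, so that every mouse carried the floxed allele. Every mouse also carried a virus, and no group on chow had NAMPT or the deletion. The study asked how hepatocyte NAMPT acts on metabolism under overfeeding and whether Sirt1 is needed for it.

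Fatty acids made or taken up by the liver are remodelled in the endoplasmic reticulum membrane. Desaturases insert double bonds with electrons passed on by cytochrome b5, and elongases start a cycle that adds a pair of carbons to the chain. Stearoyl-CoA desaturases make the monounsaturated fatty acids oleate and palmitoleate. Fads1, Fads2, Elovl2 and Elovl5 take part in turning dietary linoleate and linolenate into arachidonate and docosahexaenoate. Transcription of many of these genes is known to follow SREBP1, LXR and PPARA.

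Of the 10 members, 6 lie on chromosome 19 of GRCm38. Fads3 (ENSMUSG00000024664, + strand, 10041548 to 10059671), Fads2 (ENSMUSG00000024665, - strand, 10064164 to 10101503) and Fads1 (ENSMUSG00000010663, + strand, 10182888 to 10196870) lie close together there. Scd2 (ENSMUSG00000025203, + strand, 44293676 to 44306864), Scd1 (ENSMUSG00000037071, - strand, 44394451 to 44407709) and Elovl3 (ENSMUSG00000038754, + strand, 46131897 to 46135307) lie further along. Elovl5 (ENSMUSG00000032349) is on chromosome 9, + strand, from 77917364 to 77984519. Elovl2 (ENSMUSG00000021364) is on chromosome 13, - strand, from 41182495 to 41220405. Fads6 (ENSMUSG00000044788) is on chromosome 11, - strand, from 115279622 to 115297663, and Elovl1 (ENSMUSG00000006390) is on chromosome 4, + strand, from 118428093 to 118432953.

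Sequence identical to that of another gene was counted over stretches of 50 bases. Of the 4888 stretches of 50 bases in the Scd1 transcripts, 223 (4.56%) also occurred in another gene, most often in Scd3 (167) and Scd2 (145). For Scd2 the share was 3.97%, most often with Scd1 (145), for Fads6 it was 1.69%, and for Fads1, Elovl2, Elovl3 and Elovl5 it was 0. The authors counted uniquely aligned reads only. Elovl1 shares 53 exonic bases with Cdc20 on the other strand, and since the sources used here do not say whether strand was used, reads of these 53 bases cannot be assigned.

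The promoter sequences of 3 members are shown as the DNA in front of genes whose transcripts moved in different ways below: Elovl5 and Elovl2, which act one after the other on polyunsaturated chains, and Fads3, which changed with NAMPT. Each runs 5′ to 3′ on the gene's own strand over the 250 bases before the RefSeq start (GRCm38.p6). Capitals mark CACGTG (an E-box), CCAAT, or GGGCGG (a GC box), each on either strand.
Elovl5, chr9:77917115-77917364, + strand: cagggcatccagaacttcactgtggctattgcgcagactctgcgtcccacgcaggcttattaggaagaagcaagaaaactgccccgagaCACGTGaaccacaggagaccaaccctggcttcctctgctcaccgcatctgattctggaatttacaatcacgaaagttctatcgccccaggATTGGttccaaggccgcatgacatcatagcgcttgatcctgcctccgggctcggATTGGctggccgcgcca
Elovl2, chr13:41220404-41220653, - strand: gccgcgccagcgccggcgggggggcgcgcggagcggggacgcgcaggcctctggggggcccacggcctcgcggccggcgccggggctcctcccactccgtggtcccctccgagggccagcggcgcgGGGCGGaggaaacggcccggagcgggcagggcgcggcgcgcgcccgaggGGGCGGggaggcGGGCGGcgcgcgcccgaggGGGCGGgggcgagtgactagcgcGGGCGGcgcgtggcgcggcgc
Fads3, chr19:10041298-10041547, + strand: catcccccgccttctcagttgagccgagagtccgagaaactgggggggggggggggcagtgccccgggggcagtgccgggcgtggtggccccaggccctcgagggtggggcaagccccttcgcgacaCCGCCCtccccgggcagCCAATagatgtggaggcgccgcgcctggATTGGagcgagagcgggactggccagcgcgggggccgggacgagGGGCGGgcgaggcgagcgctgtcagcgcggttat
The Elovl5 promoter held 1 CACGTG, starting at base -161 from the start site, and 2 CCAAT letters in reverse (-71 and -17). The Elovl2 promoter shown held 5 GGGCGG and neither of the other 2 motifs, and a second Elovl2 promoter in the table, not shown, held none of the 3. The Fads3 promoter held 2 CCAAT and 2 GGGCGG.

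Of the 32851 mouse promoters of the same table, 6.02% held CACGTG, 33.8% held CCAAT and 32.7% held GGGCGG, so that CCAAT and GGGCGG are common letters. The table had 8 promoters for 6 of the members. Among the other members, Fads2 and Fads6 each held 1 GGGCGG, and the 2 promoters of Elovl1 held 5 and 2, with 1 CCAAT in the first. No member promoter held TCACNCCAC, the core of a sterol regulatory element, which 1.05% of all promoters held, or TTATGTAA, a D-box, which 0.819% held. Direct repeats of AGGTCA spaced by 1 or 4 bases were found in none of the 8 and in 0.0335% and 0.0152% of all promoters.

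Libraries held between 20166175 and 32937326 counts, and the lowest count of any member in any library was 235. Hepatocytes were the main source by their markers: all 6 hepatocyte markers were above 1 CPM in every library, and Alb ranged from 31300 to 54100 CPM. Sirt1 was not lower in the libraries labelled LKO: it ranged from 7.99 to 9.53 CPM in WD WT EV and from 7.16 to 10.1 CPM in WD LKO EV (log2 difference -0.07 ± 0.10 (SE), limma adjusted p = 0.99). A count over the whole gene does not measure the loss of 1 part of it. Nampt ranged from 38.3 to 54.1 CPM in WD WT EV and from 46.8 to 77.8 CPM in WD WT NAMPT (log2 difference 0.34 ± 0.16, adjusted p = 0.144), and these counts do not separate the mouse gene from the vector's insert. In the libraries labelled LKO, Nampt ranged from 46.0 to 75.6 CPM with EV and from 53.9 to 127 CPM with NAMPT (0.41 ± 0.16, adjusted p = 0.403). Among the 3 chow libraries, replicate 3 was highest for Scd1, Fads1, Fads2, Elovl2 and Elovl5 and lowest for Elovl3, and among the 6 WD WT EV libraries, replicate 8 was lowest for Scd1, Scd2, Fads1, Fads2 and Elovl5. The called differences between diets are therefore also given without each of these 2 libraries. WD LKO NAMPT replicate 1 was highest of its group for Scd2 and lowest for Elovl3.

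Per length, in CPM divided by exonic kilobases (RPKM), Scd1 was by far the most abundant member. In chow WT EV it reached 1903 ± 941 RPKM (SD, n = 3), followed by group mean by Elovl3 at 359 ± 201, within 1 SD of Fads2. In chow replicate 3, Elovl3 (146) was below Fads2 (319), Fads1 (251), Elovl2 (227) and Elovl5 (205). Fads2 (228 ± 78.2), Fads1 (188 ± 54.0), Elovl2 (163 ± 55.3) and Elovl5 (149 ± 48.2) came next, and neighbours in that order differed by less than 1 SD. Fads6 (25.8 ± 1.34), Elovl1 (15.6 ± 1.15), Fads3 (5.58 ± 0.79) and Scd2 (3.26 ± 1.33) were lowest.

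On Western diet the order of group means was different. In WD WT EV (n = 6), Scd1 reached 11669 ± 3698 RPKM, Fads2 501 ± 107 and Elovl5 455 ± 185, the last pair within 1 SD of each other. Elovl2 (190 ± 27.9) and Fads1 (189 ± 40.1) did not differ beyond their spread, and Elovl3 (138 ± 37.6) was below them. Scd1 made up 60.5% ± 9.45 of the summed RPKM of the 10 members on chow and 88.0% ± 1.71 on Western diet.

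**Figure D1:**
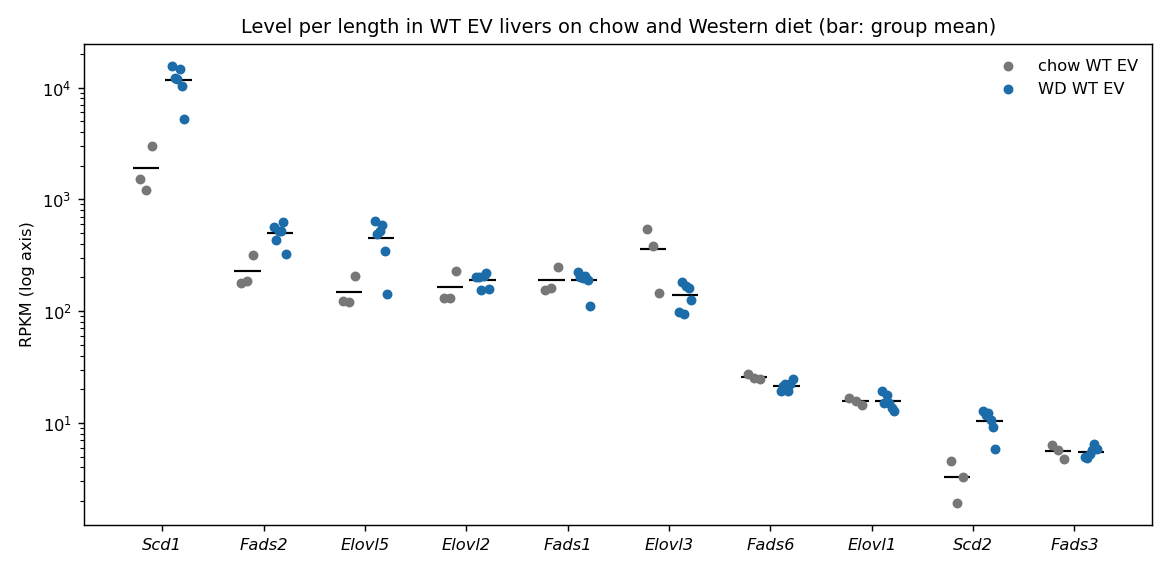
RPKM (log axis) of the 10 members in the WT EV libraries, with 1 point per library for chow (n = 3) and Western diet (n = 6) and a bar at each group mean. Scd1 lies above every other member on both diets. By group mean, Elovl3 lies second on chow, within 1 SD of Fads2, and sixth on Western diet.

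The comparison with the most members called was that of diets in WT EV mice. Scd1, Scd2, Fads2, Elovl5 and Elovl2 were higher on Western diet, Elovl3 and Fads6 were lower, and Fads1, Fads3 and Elovl1 did not pass the test. Thus 7 of 10 members were called (limma with sample quality weights, Benjamini-Hochberg adjusted p of 0.05 or less over all genes tested), 5 higher and 2 lower. Over all 14065 genes, 22% were called, 10.1% as higher and 12.0% as lower. This background of 3101 genes was 834 without chow replicate 2 and 966 without chow replicate 1. The median log2 fold change was 0.31 over the members and within 0.02 of 0 over all genes.

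The count of 7 was also found without chow replicate 3 and without WD WT EV replicate 8, and it was 4 without chow replicate 1, without chow replicate 2 or without WD WT EV replicate 1. DESeq2, voom without quality weights and both edgeR tests (quasi-likelihood and exact) each called 4 members, and these were Scd1, Scd2, Fads2 and Elovl5. Over all genes they called 1745, 1201, 1322 and 1465, in that order. Diet and the state of the clock genes moved together: the clock score, the mean standardized log2 CPM of 14 clock genes after the sign of each was set by its loading on their first principal component, with Arntl positive, ranged from 1.24 to 1.96 on chow and from -0.84 to 0.63 in WD WT EV. Arntl ranged from 27.6 to 37.4 CPM on chow and from 4.88 to 18.1 CPM in WD WT EV. Of the 14 genes, 6 were higher on Western diet, among them Dbp (4.04) and Per1 (1.36), and 4 were lower, Npas2, Clock, Arntl and Cry1. Markers of other cell types differed between diets as well: 2 of 9 macrophage markers (Cd5l 1.06 and Cd68 0.80), 2 of 6 stellate cell markers (Col3a1 1.11 and Lrat 0.54), the endothelial marker Lyve1 (1.13) and the lymphocyte marker Nkg7 (3.36) were higher. The hepatocyte marker Cps1 (-1.22, 1 of 6), the endothelial marker Kdr (-0.20) and the lymphocyte marker Cd79b (-0.79) were lower. With the macrophage score as a covariate, Scd1, Scd2, Fads2, Elovl2 and Elovl5 were still called in the same direction, and Fads6 and Elovl3 were not. The Fads6 difference lay between -0.43 and -0.26 in all 14 alternatives, this covariate included. The part of the other cell types was not tested. The hour of collection is not given in the sources used here, and its part in the diet differences was not tested beyond the clock-score values given beside single genes.

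**Figure D2:**
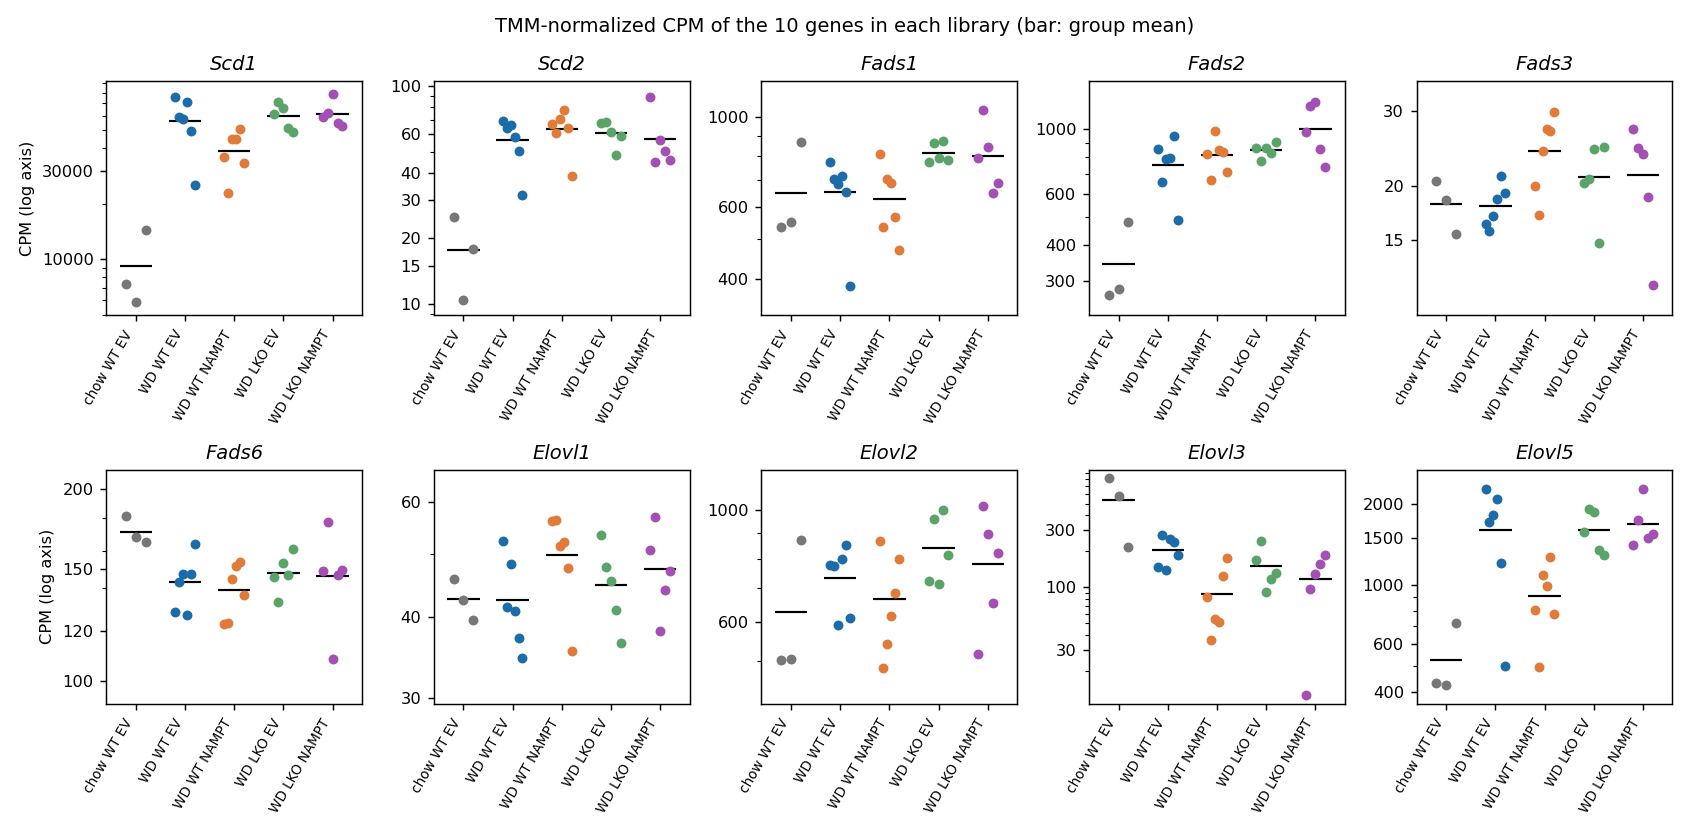
TMM-normalized CPM (log axis) of each member in each of the 25 libraries, in 1 panel per gene, with groups on the horizontal axis and a bar at each group mean. The 3 chow libraries lie below all WD WT EV libraries for Scd1, Scd2 and Fads2 and above them for Fads6.

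Scd1 makes most of the monounsaturated fatty acid of the liver. On chow its level was 7335, 5881 and 14388 CPM in replicates 1 to 3, and in WD WT EV it ran from 25443 through a median of 58151 to 75704 CPM. All 6 WD WT EV libraries were above all 3 chow libraries. The fitted difference was 2.95 ± 0.22 (SE) on the log2 scale, 7.74-fold higher (adjusted p = 8.72e-10). It was 3.06 ± 0.19 without chow replicate 3, the highest of its group, and 3.13 ± 0.19 without WD WT EV replicate 8, the lowest of its group, and it was smallest, 2.42, without chow replicate 2. Scd1 alone took 0.579% to 1.4% of all counts on chow and 2.53% to 7.55% in WD WT EV.

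Scd2 catalyses the same reaction and is the main stearoyl-CoA desaturase of brain and of the newborn. It stood at 24.9, 10.5 and 17.9 CPM on chow and ran from 31.6 through a median of 61.5 to 69.0 CPM in WD WT EV, with no overlap between the groups. The difference was 1.87 ± 0.24 (3.66-fold higher, adjusted p = 5.32e-06). It was 1.79 without chow replicate 3, 2.0 without WD WT EV replicate 8 and smallest, 1.43, without chow replicate 2. Scd1 exceeded Scd2 by 294 to 803 times in CPM on chow and by 805 to 1220 times in WD WT EV, and the pair shares 145 stretches of 50 bases. How many Scd2 counts are reads of Scd1 was not tested, so the Scd2 difference is uncertain to that extent. Adipocyte markers, whose cells also use these genes, summed to 0.118 to 0.207 CPM on chow and 0.323 to 48.3 CPM in WD WT EV. Of the 4 markers only 1 passed the filter for testing, and it was not called between diets. Plin1 was at 0 on chow. Whether these sums stand for adipocytes, and the part of such cells in the Scd1 and Scd2 differences, was not tested. In bulk liver, fewer cells of a type and less RNA per cell cannot be told apart.

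Fads2 encodes the delta-6 desaturase, which opens the conversion of essential fatty acids to longer polyunsaturated ones. It stood at 270, 283 and 481 CPM on chow and ran from 488 through 792 (median) to 945 CPM in WD WT EV. The groups did not overlap, although the highest chow library and the lowest WD library were close. Fads2 was 2.46-fold higher on Western diet (log2 1.30 ± 0.15, adjusted p = 1.36e-06), and 1.4 ± 0.14 on the log2 scale without chow replicate 3 or without WD WT EV replicate 8. It was smallest, 0.98, without chow replicate 1. With the clock score as a covariate the difference was 1.03, and it was called in all 14 other analyses and in all 9 that left out 1 library.

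Fads1, the delta-5 desaturase that acts after Fads2 and an elongation, stood at 535, 551 and 866 CPM on chow and ran from 383 through 695 to 777 CPM in WD WT EV. The chow libraries lay within or above the WD range. Its difference of 0.18 ± 0.15 (95% interval -0.14 to 0.50, adjusted p = 0.428) did not pass. In each library Fads2 can be set against Fads1: the CPM ratio lay between 0.505 and 0.555 on chow, between 0.936 and 1.44 in WD WT EV, and between 0.905 and 1.52 in the other Western diet groups. The 3 chow libraries thus had ratios below all 22 libraries on Western diet.

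Elovl5 lengthens the polyunsaturated chains that leave Fads2. It stood at 431, 424 and 722 CPM on chow and ran from 499 through 1772 to 2276 CPM in WD WT EV. WD WT EV replicate 8 fell within the chow range and the other 5 libraries were above it. The difference was 1.73 ± 0.24 (3.32-fold higher, adjusted p = 2.25e-05), and 1.99 ± 0.18 without that library. It was 1.82 without chow replicate 3 and smallest, 1.44, without chow replicate 2.

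Elovl2 extends chains of greater length on the path to docosahexaenoate. Its levels of 504, 506 and 874 CPM on chow overlapped the WD WT EV range of 590 to 852 CPM (median 775). It was called as 1.36-fold higher (0.44 ± 0.16, adjusted p = 0.0493), and the difference was 0.14 without chow replicate 1, 0.14 without chow replicate 2 and 0.20 with the clock score. It was 0.54 (adjusted p = 0.0142) without chow replicate 3 and 0.47 (adjusted p = 0.0427) without WD WT EV replicate 8. The call was lost in 9 of 14 other analyses and in 6 of 9 that left out 1 library, with adjusted p up to 0.786 in the latter. The ratio of Elovl5 to Elovl2 in CPM was 0.826 to 0.856 on chow and 0.818 to 3.1 in WD WT EV.

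Elovl3 makes saturated and monounsaturated chains of very great length, and its transcript is known for a daily rhythm in mouse liver. It stood at 815, 576 and 219 CPM on chow and ran from 140 through 213 to 271 CPM in WD WT EV. Replicates 1 and 2 of chow were above all WD WT EV libraries and replicate 3 was inside their range. Elovl3 was 2.8-fold lower on Western diet (log2 -1.48 ± 0.48, adjusted p = 0.028). The difference was -0.78 (adjusted p = 0.542) without chow replicate 1, -1.03 (0.452) without replicate 2, -1.73 (0.0153) without replicate 3, -1.50 (0.034) without WD WT EV replicate 8, -1.06 (0.241) with the clock score and -0.78 (0.28) with a macrophage marker score, described below, as a covariate.

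Fads6, for which no role is stated here, stood at 182, 168 and 165 CPM on chow and ran from 127 through 145 to 164 CPM in WD WT EV, with no overlap. The difference was small, 1.22-fold lower (-0.28 ± 0.09, adjusted p = 0.0256), and was not called in 6 of 14 other analyses or in 4 of 9 that left out 1 library. It was -0.30 without chow replicate 3, -0.32 without WD WT EV replicate 8 and -0.43 (adjusted p = 0.0205) with the clock score. Elovl1, which lengthens saturated chains for sphingolipids, stood at 45.7, 42.5 and 39.5 CPM on chow against 34.6 to 52.3 CPM (median 41.2). Fads3, which acts on sphingoid bases, stood at 20.6, 18.6 and 15.5 CPM against 15.7 to 21.1 CPM (median 17.9). Neither of these passed the test (Elovl1 -0.04, adjusted p = 0.846, and Fads3 -0.11, adjusted p = 0.707). Between diets, libraries did not overlap for 4 of 10 members, Scd1, Scd2, Fads2 and Fads6, as for 16.1% of all genes.

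**Figure D3:**
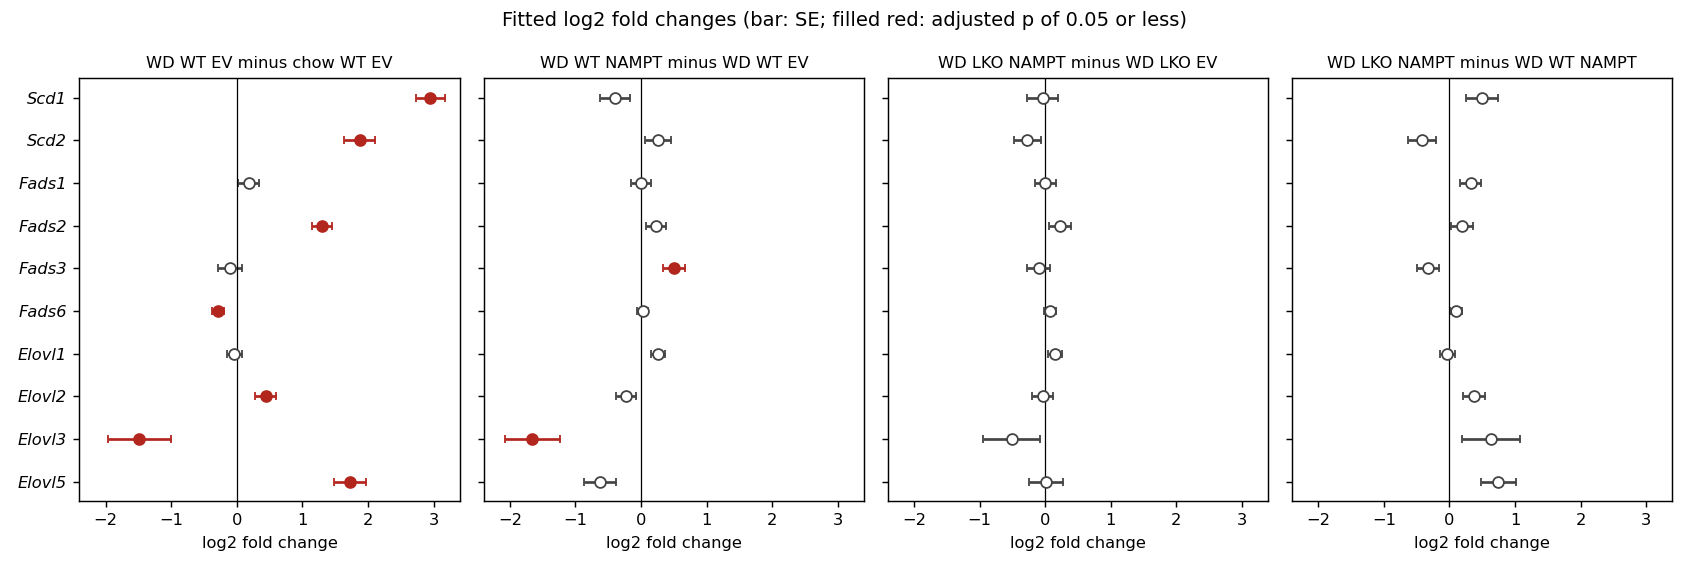
Fitted log2 fold changes of the 10 members between diets, with NAMPT in WT and in LKO mice, and between genotypes with NAMPT. The bar is 1 SE, filled red points have an adjusted p of 0.05 or less and open points do not. In the diet comparison 7 points are filled, from -1.48 for Elovl3 to 2.95 for Scd1, and with NAMPT in WT mice 2 are filled, Elovl3 at -1.66 and Fads3 at 0.50.

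The pathway around the members was described with lists of related genes. Of 6 other desaturases and elongases tested, 3 were higher on Western diet, with a list median of 1.23: Scd4 (3.67 ± 0.72), Scd3 (2.91 ± 0.28) and Elovl6 (1.57 ± 0.27), the elongase that turns palmitate into stearate. Of 6 enzymes that complete the elongation cycle, 1 was higher, Hsd17b12 (0.34 ± 0.11). Of 5 genes that supply electrons to desaturases, 1 was higher, Cyb5r3 (0.40 ± 0.12). The log2 differences ran from -0.23 to 0.61 over the elongation partners and from -0.19 to 0.40 over the electron supply genes. Over the members they ran from -1.48 to 2.95. Fads1 (0.18), Fads3 (-0.11) and Elovl1 (-0.04) lay within both of the partner ranges. A difference between the lists was not tested. Of 7 acyl-CoA synthetases, Slc27a2 was higher (0.56) and Acsl4 was lower (-0.68).

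Of 12 transcriptional regulators of these genes, 5 were higher and 3 were lower on Western diet. Srebf1, which encodes SREBP1, was higher by 1.63 ± 0.19, and Ppara by 1.04 ± 0.16, whereas Srebf2, the regulator of cholesterol synthesis, was at -0.95 ± 0.09. Insig2 (0.96), Nr1h2 (0.41) and Mbtps1 (0.18) were higher and Insig1 (-0.92) and Scap (-0.37) were lower. Of 8 other SREBP1 targets, 5 were higher, with a list median of 0.98: Pnpla3 (4.53 ± 1.53), Fasn (1.35 ± 0.34), Me1 (1.03), Acaca (0.93) and Gpam (0.71). Of 9 PPARA targets, 5 were higher, among them Vnn1 (2.74 ± 0.48), Cyp4a10 (1.52 ± 0.34) and Cpt1a (0.93 ± 0.12), and Pdk4 was lower (-1.29 ± 0.34).

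NAMPT in WT mice on Western diet came with lower Elovl3 and slightly higher Fads3, and the other 8 members did not pass the test. The count of 2 of 10, 1 in each direction, stands beside 13.4% of all genes called (7.67% as higher and 5.77% as lower, 1079 and 811 genes). This background of 1890 genes ranged from 132, without WD WT NAMPT replicate 3, to 2844, without WD WT NAMPT replicate 6, and was 291 without WD WT EV replicate 2. With scaling by library size alone, which put the median log2 difference of all genes at 0.16, the split over all genes was 2010 higher and 271 lower, and Elovl1 was called in addition. The median over the members was 0.01. No member had libraries that did not overlap between the groups, as 0.96% of all genes had.

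The 2 calls depended on single libraries and on the test. None of the members was called without WD WT EV replicate 2 or without WD WT NAMPT replicate 3, and 1 was called without WD WT EV replicate 6 or without WD WT NAMPT replicate 2, 4 or 5. The edgeR quasi-likelihood test called 0 members, and the edgeR exact test and DESeq2 called 1, which was Elovl5. Over all genes these tests called 428, 859 and 1194, in that order. With the macrophage marker score as a covariate 0 of all 14065 genes were called, and 983 had an unadjusted p under 0.05.

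In WD WT NAMPT, Elovl3 stood at 82.8, 36.1, 53.9, 50.8, 124 and 174.5 CPM in replicates 1 to 6, against 140 to 271 CPM (median 213) in WD WT EV. Of these 6 libraries 5 were below every WD WT EV library, and replicate 6 was inside their range. The difference was -1.66 ± 0.42 (3.16-fold lower, adjusted p = 0.0155). Elovl3 was not called in 8 of 14 other analyses or in 2 of the 12 that left out 1 library. This comparison and that of diets share the WD WT EV libraries.

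Macrophage markers also differed with NAMPT in WT mice. The score, the mean standardized log2 CPM of 9 markers, was 1.71, 1.54, 1.58, 0.99, 0.51 and -1.02 in the same 6 libraries, in the same order, so that the library with the lowest score had the highest Elovl3. In WD LKO NAMPT, replicate 1 had the highest score of its group (1.34) and the lowest Elovl3 of all libraries (12.5 CPM). The rest of that group did not follow this order. Replicate 5 had the next highest score (0.14) and the highest Elovl3 (186 CPM), and replicate 3 had the lowest score (-0.44) and 129 CPM. In chow WT EV, replicate 3 had the highest score of its group (-0.83) and the lowest Elovl3 (219 CPM). The WD groups with EV showed another order: in WD WT EV, the library with the highest score (replicate 2, 0.14) had the highest Elovl3 (271 CPM), and in WD LKO EV the pair with the highest scores (0.3 and 0.08) had the highest Elovl3 (168 and 244 CPM). Of the 9 markers, 6 were higher with NAMPT in WT mice, with Adgre1, the macrophage surface protein F4/80, at 21.8 to 31.5 CPM in WD WT EV and 21.7 to 92.3 CPM in WD WT NAMPT. The markers summed to 301 to 437 CPM in WD WT EV and 283 to 866 CPM in WD WT NAMPT, and none was at 0 in a group. Of 6 stellate cell markers 3 were higher, and of 4 neutrophil markers tested 2 were higher, with Ly6g at 0 in both groups. Of the endothelial markers, Clec4g was lower (-0.40) and Pecam1 higher (0.36). Of 6 hepatocyte markers 0 were called, and they summed to 50300 to 66600 CPM and 44200 to 62700 CPM. With the macrophage score in the fit, the Elovl3 difference was -0.54 (adjusted p = 0.883), and which of the score and Elovl3 leads was not tested. Of 14 clock genes 4 were lower with NAMPT in WT mice, Arntl (-1.99), Npas2 (-1.98), Hlf (-0.48) and Clock (-0.43), and with the clock score in the fit the Elovl3 difference was -1.42 (adjusted p = 0.0184).

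**Figure D4:**
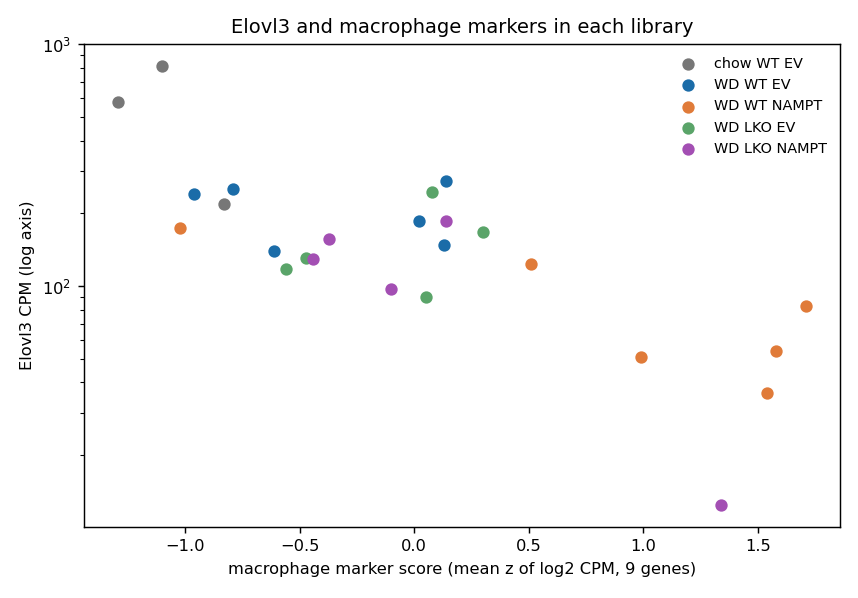
Elovl3 CPM (log axis) against the macrophage marker score (mean standardized log2 CPM of 9 genes), with 1 point per library coloured by group. Chow replicates 1 and 2 combine the highest Elovl3 values with scores of -1.1 and -1.29, and WD LKO NAMPT replicate 1, at 12.5 CPM, has a score of 1.34.

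Fads3 ran from 17.1 through 25.6 to 29.9 CPM in WD WT NAMPT, against 15.7 to 21.1 CPM in WD WT EV, and the groups overlapped. The difference was 0.50 ± 0.17 (1.42-fold higher, adjusted p = 0.0484), just inside the threshold. It was not called in 8 of 14 other analyses or in 9 of the 12 that left out 1 library, with adjusted p from 0.0464 to 0.158 in the latter. With the clock score it was 0.35 (adjusted p = 0.112).

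Elovl5 ran from 496 through 900 to 1269 CPM in WD WT NAMPT, against 499 to 2276 CPM (median 1772) in WD WT EV. It did not pass the test (-0.63 ± 0.25, adjusted p = 0.0894). Without WD WT EV replicate 8, whose 499 CPM were far below the rest of its group, the difference was -0.89 ± 0.18 (adjusted p = 0.00814), and without WD WT EV replicate 1 it was -0.50 (adjusted p = 0.179). The edgeR exact test (-0.82, adjusted p = 0.0398) and DESeq2 (-0.82, adjusted p = 0.0242) called it with all libraries. Scd1, which ran from 22939 through 40275 to 50740 CPM in WD WT NAMPT, had a difference of -0.39 ± 0.23 (adjusted p = 0.246), -0.57 ± 0.20 (adjusted p = 0.0615) without WD WT EV replicate 8 and -0.30 (adjusted p = 0.396) without replicate 1.

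For the remaining members with NAMPT in WT mice, the differences were 0.26 ± 0.11 for Elovl1 (adjusted p = 0.102), 0.26 ± 0.20 for Scd2, 0.23 ± 0.15 for Fads2 (adjusted p = 0.311) and -0.23 ± 0.16 for Elovl2. Fads1 and Fads6 were at 0.00 and 0.02. Elovl1, at 35.5 to 56.3 CPM with NAMPT and 34.6 to 52.3 CPM with EV, changed sign to -0.03 with the macrophage score in the fit.

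The related gene lists are given for NAMPT in WT mice beside the same background of 13.4% called. Cyb5b (-0.49 ± 0.11) and Cyb5a (-0.48 ± 0.13), the cytochromes b5, were lower, as 2 of 5 electron supply genes with a list median of -0.33. Hsd17b12 (-0.37 ± 0.11) and Tecr (-0.30 ± 0.08) were lower among the 6 elongation partners. Of 9 PPARA targets 5 were lower, from Cyp4a10 (-1.92 ± 0.33) to Acadm (-0.43 ± 0.10), and of 8 SREBP1 targets only Me1 was called (-1.09 ± 0.34). Acsl1 (-0.83) and Slc27a2 (-0.53) of the 7 synthetases, and the regulators Insig2 (-0.76), Mlxipl (-0.40) and Scap (-0.29) were lower. Acsl4 (0.41) and the elongase Elovl7 (1.63 ± 0.54, limma adjusted p = 0.0471) were higher. Elovl7 was near the floor, at 0.0924 to 2.19 CPM in WD WT EV and 0.323 to 5.92 CPM in WD WT NAMPT, and the groups overlapped.

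In the libraries labelled LKO, none of the 10 members passed the test of NAMPT against EV. Over all genes 0.00711% were called, which is 1 gene, and 1355 genes had an unadjusted p under 0.05. The members' log2 differences ran from -0.51 for Elovl3 (±0.43, adjusted p = 0.75) to 0.22 for Fads2. Elovl3 stood at 168, 244, 90.5, 118 and 131 CPM with EV and at 12.5, 97.6, 129, 156 and 186 CPM with NAMPT, and the groups overlapped. Without WD LKO NAMPT replicate 1, the 12.5 CPM library, the difference was -0.14 ± 0.34. No gene of the related enzyme, regulator or target lists was called.

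Between genotypes with EV, none of the members was called, against 0.00711% of all genes (1 gene, and 891 with an unadjusted p under 0.05). The smallest unadjusted p among the members was that of Fads1, which stood at 775, 863, 793, 872 and 784 CPM in WD LKO EV against 383 to 777 CPM (median 695) in WD WT EV. Of the 5 libraries labelled LKO 4 were above all WD WT EV libraries. The difference was 0.33 ± 0.15 (limma adjusted p = 0.761), and 0.21 without WD WT EV replicate 8. Averaged over both vectors it was 0.33 ± 0.11 (adjusted p = 0.176), where 0.242% of all genes (34) and none of the members were called. That background was 9 genes without WD LKO NAMPT replicate 2 and 100 without replicate 4 of that group.

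Between genotypes with NAMPT, none of the members was called, against 7.96% of all genes (1120 genes). That background rested on single libraries: it was 0 genes by limma without WD LKO NAMPT replicate 2 (2288 with an unadjusted p under 0.05), 2 without replicate 5 of that group, 78 without WD WT NAMPT replicate 3, and 2290 without WD WT NAMPT replicate 6. With scaling by library size alone the calls over all genes were 204 higher and 636 lower, against 588 and 532. Elovl5 stood at 1404, 1738, 2269, 1494 and 1551 CPM in WD LKO NAMPT, and each of these was above the highest WD WT NAMPT library at 1269 CPM. Its difference was 0.74 ± 0.27 (adjusted p = 0.0759), and DESeq2 gave 0.89 (adjusted p = 0.0434). Scd1, at 59082, 61760, 78363, 54804 and 52971 CPM, was likewise above the highest WD WT NAMPT library, at 50740 CPM (0.49 ± 0.24, adjusted p = 0.177). Libraries did not overlap for these 2 of 10 members and for 1.39% of all genes. Elovl2 had a difference of 0.38 ± 0.17 (adjusted p = 0.138), and without WD LKO NAMPT replicate 1 it was 0.47 ± 0.16 (adjusted p = 0.0492), but without replicate 2 of that group 0.16 (adjusted p = 0.672). Elovl3 had a difference of 0.63 ± 0.44 (adjusted p = 0.344), and without WD LKO NAMPT replicate 1, which held 12.5 CPM, it was 1.02 ± 0.34 (adjusted p = 0.0429), but without replicate 5 of that group 0.29 (adjusted p = 0.769).

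In this comparison, with all libraries, 3 of 5 electron supply genes were higher in the libraries labelled LKO: Cyb5a (0.51 ± 0.14), Cyb5r3 (0.44 ± 0.13) and Cyb5b (0.44 ± 0.11). The elongation partner Hacd3 (0.35), the synthetases Acsl1 (0.76) and Slc27a2 (0.47), and 6 of 9 PPARA targets, led by Cyp4a10 (2.45 ± 0.36), were higher too. None of these calls was made without WD LKO NAMPT replicate 2. Of the 9 macrophage markers, Csf1r was lower (-0.56 ± 0.14), all 9 had negative differences (median -0.67), and the list summed to 307 to 698 CPM in WD LKO NAMPT. The neutrophil marker Csf3r (-1.31), the stellate cell marker Pdgfrb (-0.61) and the cholangiocyte marker Sox9 (-1.45) were lower too, and their part in these differences was not tested. These values share the WD WT NAMPT libraries with the comparison of vectors in WT mice.

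The difference between the NAMPT effects in both genotypes was tested as an interaction, and none of the members was called, against 0.00711% of all genes (1 gene, and 2986 with an unadjusted p under 0.05). This background was 677 genes without WD LKO NAMPT replicate 1, 636 and 366 without WD WT NAMPT replicates 6 and 5, 62 without WD WT EV replicate 8 and 535 with the clock score. The values were 1.15 ± 0.60 for Elovl3 (adjusted p = 0.271), 0.64 ± 0.36 for Elovl5 (0.311) and -0.60 ± 0.24 for Fads3 (0.158). Averaged over genotypes, NAMPT gave -1.09 ± 0.30 for Elovl3 (adjusted p = 0.0536), with none of the members and 1.79% of all genes (252) called. That background was 0 genes by limma without WD WT EV replicate 2 (2413 with an unadjusted p under 0.05), 6 without WD WT NAMPT replicate 3 and 993 without WD WT NAMPT replicate 5.

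Some members also varied together between animals of the same group. Correlations of log2 CPM after removal of group means, over 25 libraries, were computed for 45 pairs with 100000 permutations within groups. By Pearson's r 6 of these pairs were called, all positive, and all 6 were among Scd1, Fads1, Fads2 and Elovl5. The share of called pairs over all other genes was not computed. Members also had high within-group r with genes outside the set, such as Scd1 with Gapdh (0.70) and Elovl1 with Arl2bp (0.86). The 6 pairs are therefore not shown to be particular to the members. Scd1 and Elovl5 had Pearson's r = 0.951 and Spearman's rho = 0.938 (p = 1e-05 for r, the smallest that these permutations can give, adjusted p = 0.00045), and r = 0.95 without the 2 libraries farthest out. Fads1 and Fads2 had r = 0.797 and rho = 0.748 (permutation p = 0.00069, adjusted 0.0155), and r = 0.726 without 2 libraries. Scd1 and Fads2 had r = 0.749 and rho = 0.665 (adjusted permutation p = 0.0196), and r = 0.571 without 2 libraries. The 3 other pairs had r from 0.67 to 0.738 and rho from 0.555 to 0.658, with adjusted permutation p for r from 0.0405 to 0.0457 and r of 0.483 to 0.532 without 2 libraries. For Fads2 and Elovl5 the adjusted permutation p for rho was 0.0861. By rho, Scd2 and Elovl1 passed as well (rho = 0.571, adjusted permutation p = 0.0468), with r = 0.534 (adjusted permutation p = 0.0511) and r = 0.301 without 2 libraries. Without the 3 chow libraries only Scd1 and Elovl5 passed, at r = 0.98, and the 5 other pairs had r from 0.645 to 0.747. All pairs share the libraries, their size factors and their depth.

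**Figure D5:**
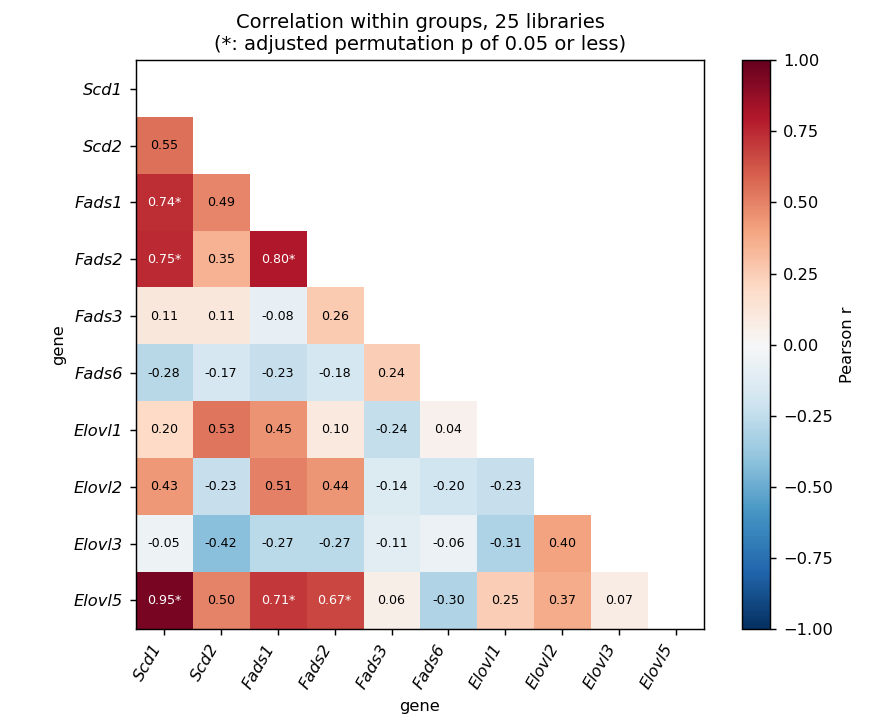
Pearson's r of log2 CPM between each pair of members over 25 libraries after removal of group means, as a colour scale, with a star where the adjusted permutation p is 0.05 or less. The 6 starred pairs join Scd1, Fads1, Fads2 and Elovl5, and the strongest is Scd1 with Elovl5 at r = 0.951.

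Over the 25 libraries, group differences included, the genes whose log2 CPM was most like that of Scd1 were Scd3 (r = 0.96), Mfsd2a (0.95) and Cd36 (0.93). For Scd2 they were Apoa4 (0.91), Cidec (0.89) and Scd3 (0.89), and for Fads2 they were Cpt1a (0.92), Anxa7 (0.90) and Scd1 (0.90). Elovl5 was most like Mogat1 (0.93), Rdh16 (0.92) and Tmem135 (0.91), and Elovl3 was most like Pitx3 (0.90), Atp2a2 (0.89) and Tuba4a (0.89). The other members had lower values: Elovl1 with Arl2bp, Mtmr11 (both 0.85) and Tmem176b (0.84), Fads1 with Klk1b4 (0.81), Fmo4 (0.80) and Nipal1 (0.78), and Elovl2 with Timm17b, Pmf1 and Psmb2 (all 0.79). Fads6 was most like Hint2, Vmo1 (both 0.77) and F2 (0.76), and Fads3 was most like Nmrk1 (0.65), Polr3a and Nrg4 (both 0.64). These are descriptions over libraries that share the diet difference.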

How the data were processed

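Per the labels, the authors aligned single-end reads to GRCm38 with STAR 2.5.1a and counted uniquely aligned, unambiguous reads per Ensembl gene with featureCounts 1.4.6-p5. The deposited tables give unnormalized read counts for each gene. They also give CPM and RPKM, derived by the authors from these counts. Only the counts were used here. Groups came from the sample titles, which name NAMPT as the insert where a general label names SIRT1. No sequencing batch was given in the sources used here.

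Genes with more than 1 CPM in at least 2 libraries were kept and 4 ribosomal RNA genes were removed, which left 14065. Size factors were TMM (edgeR 4.0.16). All 25 libraries entered a single limma 3.58.1 model (voomWithQualityWeights, R 4.3.3) with a mean for each group, and p-values were adjusted over all genes by the Benjamini-Hochberg method at 0.05. CPM and RPKM printed here are TMM-normalized, and logarithms used a pseudocount of 0.5. Each library is 1 mouse. Counting error alone is small at these depths. SD describes the spread between mice of a group. SE is the uncertainty of a fitted difference, from a variance that limma estimates over all groups. The procedure was tested on simulated data.

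The members, gene lists, tests and alternatives were chosen with earlier results of these data known. All 10 members are named. Of the other lists, called genes are named, at most 6 per list by size, and marker and clock lists are given by counts with examples chosen after their values were seen. For each member the 3 genes with the highest r are named. A list for the last steps of docosahexaenoate synthesis is not reported here. Promoter sequences are from RefSeq, and 6 members matched.

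The alternatives were the edgeR quasi-likelihood and exact tests, DESeq2 1.42.0, voom without quality weights, upper-quartile and library-size scaling, no filter, a filter on mean CPM, removal of ribosomal protein genes, the compared groups alone, a block for the replicate number, surrogate variables (2, from sva 3.50.0), clock and macrophage scores as covariates, and each library left out.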

Additional observations from a re-analysis of the deposited data

Results flagged for a closer look

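In 2 of 40 groups of CPM values examined, 4 or more libraries of 1 member each, a single library lay apart from the others by a Dixon gap at the 95% level. Chance flags about 1 group in 20, which is 2 of 40. Scd2 reached 89.2 CPM in WD LKO NAMPT replicate 1, the highest of its group, and the gap to the next library was 0.741 of the whole range. Fads1 stood at 382.6 CPM in WD WT EV replicate 8, the lowest of its group, with a gap of 0.69 of the range.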

How the results depend on the processing

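Direction and call held for Scd1, Scd2, Fads2 and Elovl5 between diets in all 14 alternatives and all 9 fits without 1 library. The number of members called between diets, 7, became 4 with DESeq2, with voom without quality weights and with both edgeR tests (quasi-likelihood and exact), and lay between 4 and 7 without 1 library. For NAMPT in WT mice, 2 became 0 under the edgeR quasi-likelihood test, voom without quality weights, no filter, 2 surrogate variables and the macrophage score, became 1 under the edgeR exact test and DESeq2, and lay between 0 and 2 without 1 library. For LKO NAMPT against WT NAMPT, 0 became 1 with DESeq2 and lay between 0 and 2 without 1 library. For NAMPT averaged over genotypes, 0 became 2 with the clock score and lay between 0 and 1 without 1 library. The 6 called pairs became 1 without the 3 chow libraries, where the 5 others kept r from 0.645 to 0.747, and 8 with library size only. Elovl3 between genotypes with NAMPT, not called, reversed to -0.159 with 2 surrogate variables and to -0.365 with the macrophage score. Elovl1 with NAMPT in WT mice reversed to -0.024 with 2 surrogate variables and to -0.029 with the macrophage score. The cause was not tested.

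With the replicate number as a replicate block, 3 members were called for NAMPT in WT mice (Scd1 at -0.73, Fads3 at 0.64 and Elovl5 at -1.11), 1 for LKO NAMPT against WT NAMPT, 1 for the interaction, 1 for the averaged NAMPT effect (Elovl5 in each of these 3) and 7 between diets, where Fads1 was gained and Elovl2 lost. Of all 14065 genes, the same fit called 884 for NAMPT in WT mice and 412 for LKO NAMPT against WT NAMPT. It called 66 for the interaction and 3842 between diets. Elovl3 with NAMPT in WT mice lost its call (-1.16, adjusted p = 0.128). No label says that a number marks a shared litter or batch, and same-numbered WD WT EV and WD WT NAMPT libraries correlated between -0.28 and 0.53 in their deviations from group means.

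Over all genes, the count called was 1322 under the edgeR quasi-likelihood test against 3101 between diets, and 428 against 1890 for NAMPT in WT mice. Between diets it was 1465 under the exact test, 1745 with DESeq2 and 1201 with voom without quality weights. For NAMPT in WT mice these were 859, 1194 and 192. That comparison had 70 calls with 2 surrogate variables, 0 with the macrophage score and 524 of 29119 genes with no filter. For LKO NAMPT against WT NAMPT, DESeq2 called 294. No member had under 235 counts in a library, which limits the counting error of these values.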

Other observations

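Values outside the comparisons were limited to ratios between Scd1 and its neighbours in the same gene family. Scd1 exceeded Scd3, which shares 167 stretches of 50 bases with it, by 1020 to 1190 times in CPM on chow, 918 to 1430 times in WD WT EV, 830 to 1190 times in WD WT NAMPT, 885 to 1140 times in WD LKO EV and 957 to 1630 times in WD LKO NAMPT. Scd1 exceeded Scd4 by 3960 to 11100 times on chow and 1610 to 5900 times in WD WT EV. How many Scd3 and Scd4 counts are reads of Scd1 was not tested.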
